A study of Mus musculus with 45 samples.

Results

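The genes described here are the enzymes, transfer proteins and membrane proteins of the lysosome together with the subunits of its proton pump, the vacuolar ATPase. They were chosen by name: 30 listed lysosomal genes plus every mouse symbol that begins with Atp6v0 or Atp6v1, each looked up in the deposited table of hippocampal expression. Of the 55 symbols so named, 46 were present among the 15897 genes of the table, namely all 30 listed genes and 16 of 25 V-ATPase symbols. The symbols that were not there are Atp6v0a4, Atp6v0c-ps1, Atp6v0c-ps2, Atp6v0d2, Atp6v1b1, Atp6v1c2, Atp6v1e2, Atp6v1fnb and Atp6v1g3, and the table held only genes whose mean count passed the authors' filter.

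RNA was sequenced from the hippocampus of 45 female mice on a C57Bl/6J background, which fall into 8 groups of 4 genotypes and 2 diets. AwTw mice carry no transgene. A+Tw mice carry the APPswe/PS1dE9 transgene, in which the mouse prion protein promoter drives mutant forms of APP and presenilin linked to familial Alzheimer's disease. AwT+ mice carry human tau with the P301L mutation under the CaMKII promoter, which acts in forebrain excitatory neurons, and A+T+ mice carry both transgenes. From 7 months of age until sacrifice at 13 months, mice were fed either a standard diet (STD, 5% fat and 0% cholesterol) or a typical western diet (TWD, 21% fat, 0.15% cholesterol and 35% sucrose). There were 5 mice in A+Tw/STD, 4 in A+T+/STD and 6 in each of the remaining 6 groups. Each library was labelled as batch 0 or batch 1, and A+Tw/STD had 1 mouse in batch 0.

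Lysosomes are acidic compartments in which hydrolases break down sugars, lipids and proteins that reach them by endocytosis, phagocytosis and autophagy. The V-ATPase acidifies them: its V1 sector hydrolyses ATP in the cytosol and its V0 sector carries protons across the membrane. Many lysosomal genes carry the E-box CACGTG near their start sites, within a longer element known as CLEAR that the transcription factor TFEB binds. In the brain, neurons and glia all have lysosomes, microglia use them heavily when they engulf debris, and inherited loss of many of these enzymes causes storage disease.

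The E-box was searched in windows that span 250 bases before to 50 bases after annotated start sites, taken from RefSeq on build GRCm38.p6. Of the 46 members, 39 had at least 1 window under their symbol. The letters CACGTG, which read the same on both strands, were in a window of 13 of these 39 (33.3%), against 8.09% of 27025 genes with a window. The longer TCACGTGA, which contains CACGTG and also reads the same on both strands, was in 6 of 39 (15.4%), against 1.12% of all genes. The letters GAGGAAGT, the core bound by PU.1 and related factors of myeloid cells, were searched on both strands and found in 2 of 39 (5.13%), against 3.69% of all genes. Of the 9 members that were higher in mice with the APPswe/PS1dE9 transgene (given next), all had a window and 3 held CACGTG. These 3 are shown here from 220 bases before to 30 bases after the start site, 5′ to 3′ along the gene, with the E-box in capitals, followed by the window of Laptm5, which had the largest difference and holds no E-box.

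Lamp1 (chr8:13158941-13159190, + strand): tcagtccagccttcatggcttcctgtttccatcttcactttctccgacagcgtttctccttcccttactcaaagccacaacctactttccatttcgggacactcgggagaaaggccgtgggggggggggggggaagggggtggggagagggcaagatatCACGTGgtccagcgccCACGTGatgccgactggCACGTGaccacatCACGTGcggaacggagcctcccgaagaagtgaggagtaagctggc
Naglu (chr11:101069874-101070123, + strand): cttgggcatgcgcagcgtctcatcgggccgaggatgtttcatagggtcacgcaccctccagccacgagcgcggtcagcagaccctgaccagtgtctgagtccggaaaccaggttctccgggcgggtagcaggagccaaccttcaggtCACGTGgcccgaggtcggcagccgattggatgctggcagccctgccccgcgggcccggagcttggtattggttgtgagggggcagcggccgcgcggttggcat
Glb1 (chr9:114400858-114401107, + strand): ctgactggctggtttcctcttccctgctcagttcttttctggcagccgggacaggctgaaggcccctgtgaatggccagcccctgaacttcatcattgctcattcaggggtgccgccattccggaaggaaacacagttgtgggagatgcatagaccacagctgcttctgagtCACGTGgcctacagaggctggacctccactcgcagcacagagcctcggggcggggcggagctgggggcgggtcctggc
Laptm5 (chr4:130913096-130913345, + strand): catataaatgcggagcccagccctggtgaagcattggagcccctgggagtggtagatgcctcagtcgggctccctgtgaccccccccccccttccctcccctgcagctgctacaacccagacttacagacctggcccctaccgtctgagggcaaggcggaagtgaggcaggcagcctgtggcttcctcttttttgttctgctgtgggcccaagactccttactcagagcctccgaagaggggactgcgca

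Lamp1 held 4 copies, which began 61, 45, 28 and 15 bases before the start site. The single copies began 73 bases before the start site of Naglu and 48 bases before that of Glb1. A match of letters is a description of the sequence and says nothing about which factor was bound there in these mice.

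All expression values below are the authors' variance-stabilized values, a log2-like scale, on which the change of genes of low expression is understated and levels of different genes are not comparable. The depth of each library is unknown, so precision is read from the spread between mice, which within a group are separate animals. Each difference was tested with limma in a fit of all genes, with p adjusted by Benjamini-Hochberg over the 15897 genes and a threshold of 0.05. The labels were checked first. App read 15.05 to 15.80 in the 21 A+ mice and 14.29 to 14.86 in the 24 Aw mice, and Prnp, whose promoter drives the transgene, read 14.65 to 15.02 against 13.28 to 13.98. Neither gene overlapped between those groups. Mapt read 12.59 to 13.40 in T+ and 12.61 to 13.16 in Tw mice, so that the table, which was quantified on mouse sequence, gave no check of the human tau transgene. All 6 hippocampal markers listed (Prox1, Zbtb20, Neurod6, Wfs1, Fibcd1 and Calb1) were present, with mean values of 9.69 to 11.33. The mean correlation of a mouse with all others was lowest in A+T+/TWD replicate 1 (0.937) and AwTw/TWD replicate 3 (0.940). Counts of calls for A+ against Aw and for diet over all genotypes are given with and without these mice.

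Mice with the APPswe/PS1dE9 transgene (A+) had higher expression of some of the lysosomal genes than mice without it (Aw). With the 4 A+ groups set against the 4 Aw groups, 9 of the 46 members were higher and none was lower, while 3.11% of all genes were higher. The 9 were the membrane protein Laptm5, the glycosidases Gusb, Man2b1, Hexa, Naglu and Glb1, the granulin precursor Grn, the cholesterol transfer protein Npc2 and the membrane glycoprotein Lamp1. No V-ATPase subunit named Atp6v0 or Atp6v1 (0 of 16) and no sulfatase (0 of 4) passed the test in limma, and 1 of these, Atp6v1e1, had an unadjusted p under 0.05. The median log2 difference over the 46 members was 0.051, and that over all genes was -0.017.

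**Figure D1:**
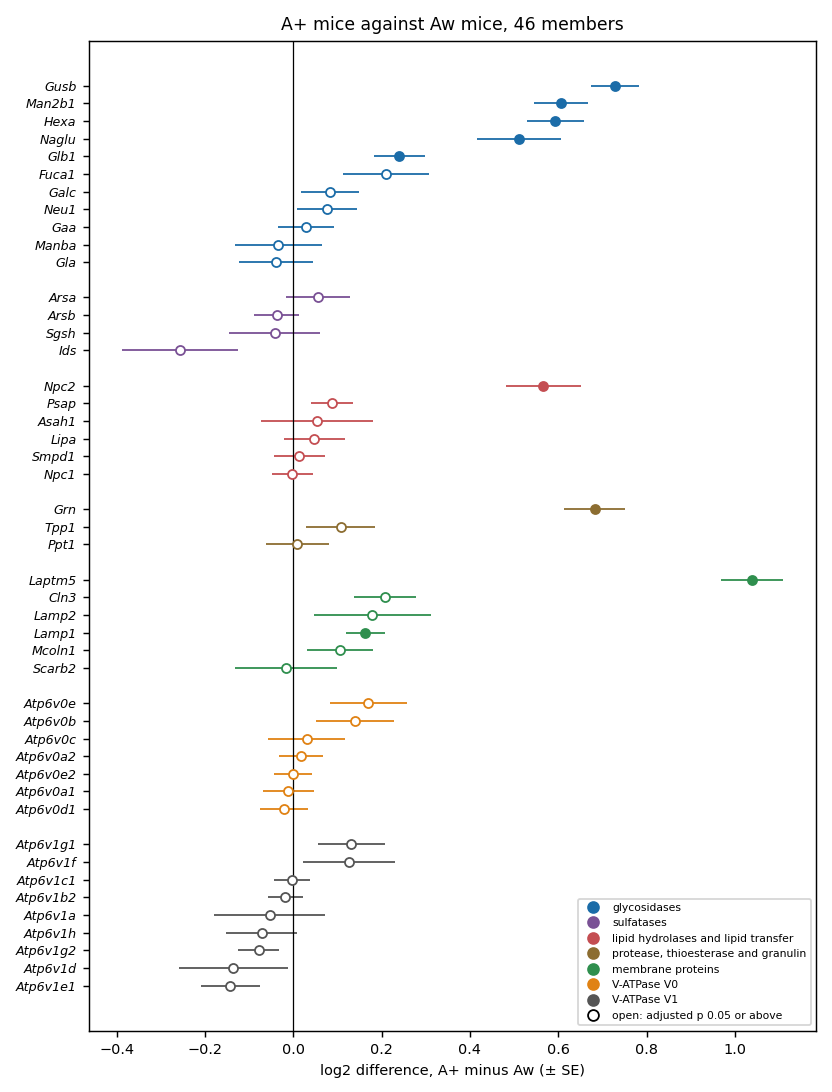
Log2 difference between A+ and Aw mice (A+ minus Aw, x axis, ± SE) for each of the 46 members, ordered within 7 roles shown by colour; filled points passed an adjusted p of 0.05 in limma and open points did not. Laptm5 (1.04) lies farthest to the right, 5 of the 11 glycosidases are filled, and all 16 V-ATPase subunits lie between -0.14 and 0.17.

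Laptm5 encodes a lysosomal membrane protein of blood-derived cells and microglia, and it separated the A+ from the Aw mice completely. Without the transgene, the AwTw/STD mice read 9.65 to 10.11 (median 9.69), AwTw/TWD 9.70 to 10.47 (median 10.22), AwT+/STD 9.66 to 10.06 (median 9.83) and AwT+/TWD 9.69 to 10.36 (median 10.04). With it, the A+Tw/STD mice read 10.62, 10.67, 10.74, 11.32 and 11.47, and the A+T+/STD mice 10.76, 10.78, 10.97 and 11.07. The A+Tw/TWD mice read 10.84 to 11.27 (median 11.05) and the A+T+/TWD mice 10.68 to 11.42 (median 10.81). The lowest A+ mouse (10.62) was thus above the highest Aw mouse (10.47). The difference was 1.04 ± 0.07 on the log2 scale (SE), or 2.06-fold, with an adjusted p of 5.00e-15 in limma.

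Gusb, the beta-glucuronidase that cleaves glucuronic acid from glycosaminoglycans, read 8.21 to 9.01 (median 8.71) in the 21 A+ mice and 7.63 to 8.27 (median 7.90) in the 24 Aw mice. All but 1 of the A+ mice (20 of 21) were above the highest Aw mouse. The difference was 0.73 ± 0.06 (1.66-fold, adjusted p = 1.50e-13, limma). Grn, whose product progranulin is cut into granulins inside lysosomes, read 10.26 to 11.28 (median 10.71) in A+ and 9.76 to 10.66 (median 9.98) in Aw mice. Here 13 of 21 A+ mice exceeded the highest Aw mouse, and the difference was 0.68 ± 0.07 (1.60-fold, adjusted p = 7.50e-10, limma).

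Man2b1 and Hexa act on sugar chains, the former as an alpha-mannosidase and the latter as the alpha subunit of beta-hexosaminidase. Man2b1 read 9.95 to 10.55 (median 10.22) in A+ and 9.28 to 10.20 (median 9.61) in Aw mice, with 11 of 21 A+ mice above every Aw mouse and a difference of 0.61 ± 0.06 (1.52-fold, adjusted p = 5.00e-10, limma). Hexa read 10.16 to 10.88 (median 10.46) in A+ and 9.59 to 10.51 (median 9.85) in Aw mice, with 9 of 21 A+ mice above every Aw mouse and a difference of 0.59 ± 0.06 (1.51-fold, adjusted p = 4.08e-09, limma). For Hexa, 21 of 24 Aw mice also lay below the lowest A+ mouse. The highest Aw mouse in Grn, Man2b1 and Hexa was AwTw/TWD replicate 3, 1 of the 2 mice with the lowest mean correlation. In Man2b1 the next highest Aw mouse read 9.93, below the lowest A+ mouse (9.95).

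The remaining members that rose overlapped more. Npc2, which hands cholesterol to Npc1, read 10.02 to 10.85 in A+ and 9.46 to 10.73 in Aw mice (difference 0.57 ± 0.09, adjusted p = 7.37e-06, limma). Naglu, an enzyme of heparan sulfate breakdown, read 7.61 to 8.71 in A+ and 7.16 to 8.74 in Aw mice (0.51 ± 0.10, adjusted p = 2.81e-04). In Naglu no A+ mouse was above the highest Aw mouse, AwTw/TWD replicate 3. That mouse was also the highest Aw mouse in Npc2, Glb1 and Lamp1. The next highest Aw mouse read 8.27 in Naglu and 10.44 in Npc2. Glb1, the beta-galactosidase that acts on gangliosides, and Lamp1, an abundant coat protein of the lysosomal membrane, differed least, by 0.24 ± 0.06 (adjusted p = 0.0074) and 0.16 ± 0.04 (adjusted p = 0.0236).

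**Figure D2:**
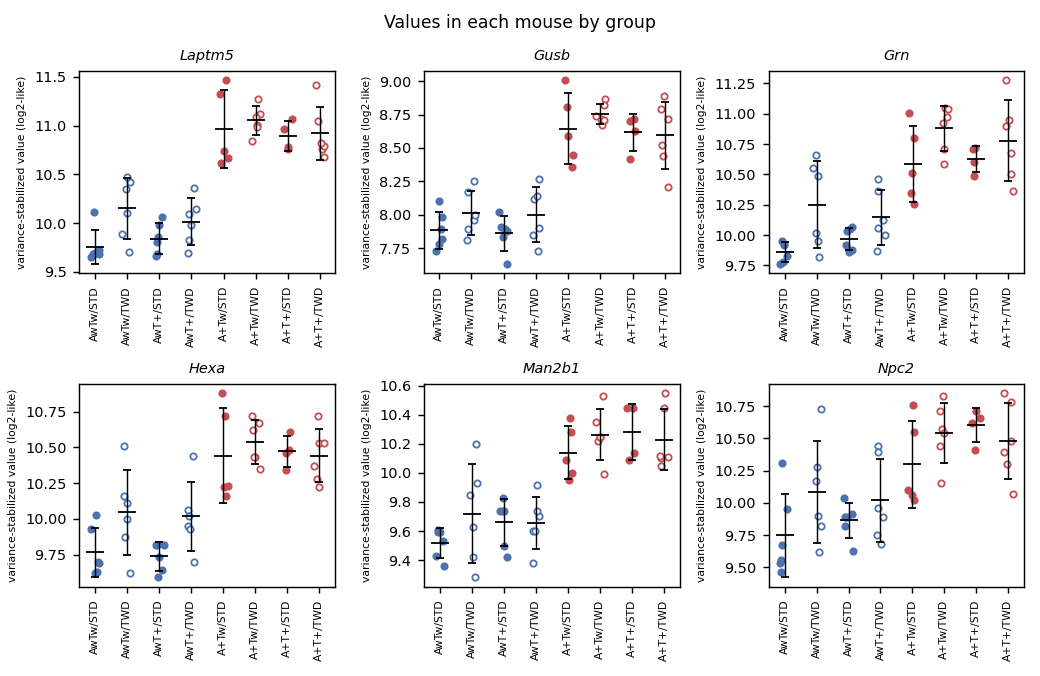
Variance-stabilized values (log2-like, y axis) of 6 members in each of the 45 mice by group; blue points are Aw and red points A+ mice, filled points STD and open points TWD, and bars give the mean ± SD. In Laptm5 the lowest red point (10.62) is above the highest blue point (10.47), and in Npc2 the colours overlap from 10.02 to 10.73.

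Laptm5, Gusb, Grn, Man2b1 and Hexa passed the test within each batch. In batch 0 alone 6 members passed, against 1.16% of all genes, and in batch 1 alone 8, against 1.81%. The 8 in batch 1 included Tpp1 (0.32, adjusted p = 0.0273, limma), which is not among the 9 and differed by -0.06 in batch 0. Naglu did not pass in batch 1 (adjusted p = 0.0672, limma). All 9 had a positive difference in both batches. Laptm5 differed by 0.91 in batch 0 and 1.13 in batch 1, Gusb by 0.68 and 0.74, and Grn by 0.68 and 0.71. Lamp1 differed by 0.07 and 0.24, and neither value passed the test (adjusted p = 0.801 and 0.0665, limma). Lamp1 was also lost when A+T+/STD replicate 1, A+T+/STD replicate 2 or A+Tw/STD replicate 5 was left out (largest adjusted p = 0.0526, limma). The other 8 stayed past the threshold in each of the 45 fits that left out 1 mouse. With A+T+/TWD replicate 1 and AwTw/TWD replicate 3 both left out, 9 members passed, against 4.16% of all genes in either direction.

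Other members of the same roles gave small differences that did not pass. Psap, the precursor of the saposins that help lipid hydrolases, differed by 0.09 ± 0.05 (adjusted p = 0.379), Npc1, the membrane partner of Npc2, by -0.00 ± 0.05 (0.987), and Lipa, the acid lipase of cholesteryl esters, by 0.05 ± 0.07 (0.755). Among hydrolases whose loss causes neuronal storage disease, Tpp1 differed by 0.11 ± 0.08 (adjusted p = 0.501) and Ppt1 by 0.01 ± 0.07 (0.960). Cln3, a membrane protein, came closest to the threshold, with 0.21 ± 0.07 and an adjusted p of 0.107. The acid sphingomyelinase Smpd1 differed by 0.01 ± 0.06 (0.920), the acid ceramidase Asah1 by 0.05 ± 0.13 (0.854) and the calcium channel Mcoln1 by 0.11 ± 0.07 (0.488). The lowest value was that of the iduronate sulfatase Ids, at -0.26 ± 0.13 (adjusted p = 0.343).

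The SE of the pump subunits ran from 0.04 for Atp6v1b2 to 0.13 for Atp6v1a, and their log2 differences ran from -0.14 for Atp6v1e1 to 0.17 for Atp6v0e, neither of which passed (adjusted p = 0.301 and 0.342). The catalytic subunit Atp6v1a differed by -0.05 ± 0.13, the proton-carrying ring subunit Atp6v0c by 0.03 ± 0.09 and the membrane subunit Atp6v0a1 by -0.01 ± 0.06. Values of Atp6v1c1 are identical to those of an unnamed gene of the table and so cannot be assigned to it alone.

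Lysosomal genes outside the list were looked at next, from 63 names of which 61 were in the table. Over these 61 the median difference was 0.100. Of them, 20 were higher in A+ mice, against 3.11% of all genes, and none was lower. They included Cd68, a glycoprotein of phagocyte lysosomes (1.74 ± 0.08, adjusted p = 1.31e-19), and the cathepsins Ctsd (1.14 ± 0.09), Ctsz (1.13 ± 0.10) and Ctss (1.13 ± 0.05). Tcirg1, which encodes a further isoform of the V0 a subunit alongside Atp6v0a1 and Atp6v0a2 but does not carry an Atp6v symbol, was higher as well, by 0.50 ± 0.10 (adjusted p = 9.63e-04).

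Markers of other cell types moved beside these genes. Of 14 microglial markers, 10 were higher in A+ mice, against 3.11% of all genes, and none was lower. The median difference was 0.607, with C1qa at 1.19 ± 0.10 and Csf1r at 0.63 ± 0.06. The mean of the list, centred over all mice, ran from 0.03 to 0.57 in A+ and from -0.53 to -0.06 in Aw mice. In bulk tissue, more cells of a type and more RNA per cell cannot be told apart, and the part of microglial number in the lysosomal differences was not tested. Of 10 astrocyte markers 1 rose, Gfap, and of 10 neuronal markers 0 passed (3 at an unadjusted p under 0.05), with medians of 0.011 and -0.094. Of 10 oligodendrocyte markers 1 rose (4 at an unadjusted p under 0.05, median 0.120), and of 10 endothelial markers 0 passed (median -0.042). All 11 choroid plexus markers had positive differences with a median of 0.838, of which 0 passed in limma and 6 did at an unadjusted p under 0.05. The choroid plexus mean ran from -2.09 to 1.81 in A+ and from -2.40 to 2.07 in Aw mice. With that mean as a covariate 7 members passed, against 2.64% of all genes, and Glb1 (0.18) and Lamp1 (0.14) did not.

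Each A+ genotype was then compared with AwTw on the same diet. These contrasts share their AwTw mice within a diet, so their values are given side by side. In A+Tw/STD 5 members were higher, against 0.918% of all genes, and in A+Tw/TWD 5, against 0.818%. In A+T+/STD 8 were higher, against 1.22%, and in A+T+/TWD 4, against 0.692%. Laptm5 differed by 1.19 ± 0.14, 0.96 ± 0.14, 1.17 ± 0.15 and 0.82 ± 0.14 in that order, and Gusb by 0.75 ± 0.11, 0.78 ± 0.11, 0.75 ± 0.12 and 0.62 ± 0.11. Grn (0.58 to 0.79) and Man2b1 (0.55 to 0.78) passed in all 4 contrasts too. Hexa passed in all but A+T+/TWD, and Npc2 (0.87 ± 0.18, adjusted p = 0.00454), Naglu (0.77 ± 0.20, 0.0424) and Glb1 (0.46 ± 0.12, 0.0436) passed in A+T+/STD. When each mouse was left out in turn, the calls of Naglu and Glb1 in A+T+/STD were lost in 7 and 9 of 45 fits, and those of Grn in A+T+/TWD and Hexa in A+Tw/TWD in 6 each.

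Whether the transgene effect differed by diet was tested directly. No gene of the table passed for A+ by diet, A+Tw by diet, A+T+ by diet or AwT+ by diet (0% called in each), and among the members 0, 1, 1 and 6 had an unadjusted p under 0.05 in limma. The smaller differences of Laptm5 and Gusb on TWD in A+T+ mice (0.82 against 1.17 and 0.62 against 0.75) are therefore not shown to depend on diet in that fit. With weights per mouse, however, 11 members passed for A+T+ by diet, against 18.2% of all genes, among them Laptm5 (-0.52, adjusted p = 0.0298, limma) but not Gusb (-0.30, 0.115). For A+T+ by diet, Glb1 had the smallest unadjusted p, with -0.37 (adjusted p = 0.560).

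Tau alone gave no call among the members. For AwT+ against AwTw, 0 members and 0% of all genes passed on STD, with 1 member and 380 genes at an unadjusted p under 0.05. On TWD again 0 members and 0% passed, with 3 members and 484 genes at that level. The member medians were -0.007 and -0.020. Adding tau to APPswe/PS1dE9 (A+T+ against A+Tw over both diets) called 0.0126% of all genes and 0 of 46 members. A single member, the sulfamidase Sgsh, reached an unadjusted p under 0.05, with 0.33.

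On the western diet, members differed from the standard diet in both directions. With genotype and batch in the fit, 20 of 46 members differed between 24 TWD and 21 STD mice, against 29.4% of all genes. Of these, 12 were higher on TWD, against 16.0% of all genes, and 8 were lower, against 13.4%. The median member difference was 0.068 and that of all genes -0.001. With A+T+/TWD replicate 1 and AwTw/TWD replicate 3 both left out, 0 of 46 members passed in limma (22 at an unadjusted p under 0.05), 1 gene of the whole table did, and the member median was 0.061. Calls were thus lost over the whole table. Because members differed in both directions, the median over the 46 does not show how their single differences changed. Leaving out AwTw/TWD replicate 1 or replicate 3 alone left 12 members each, against 21.4% and 17.4% of all genes.

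**Figure D3:**
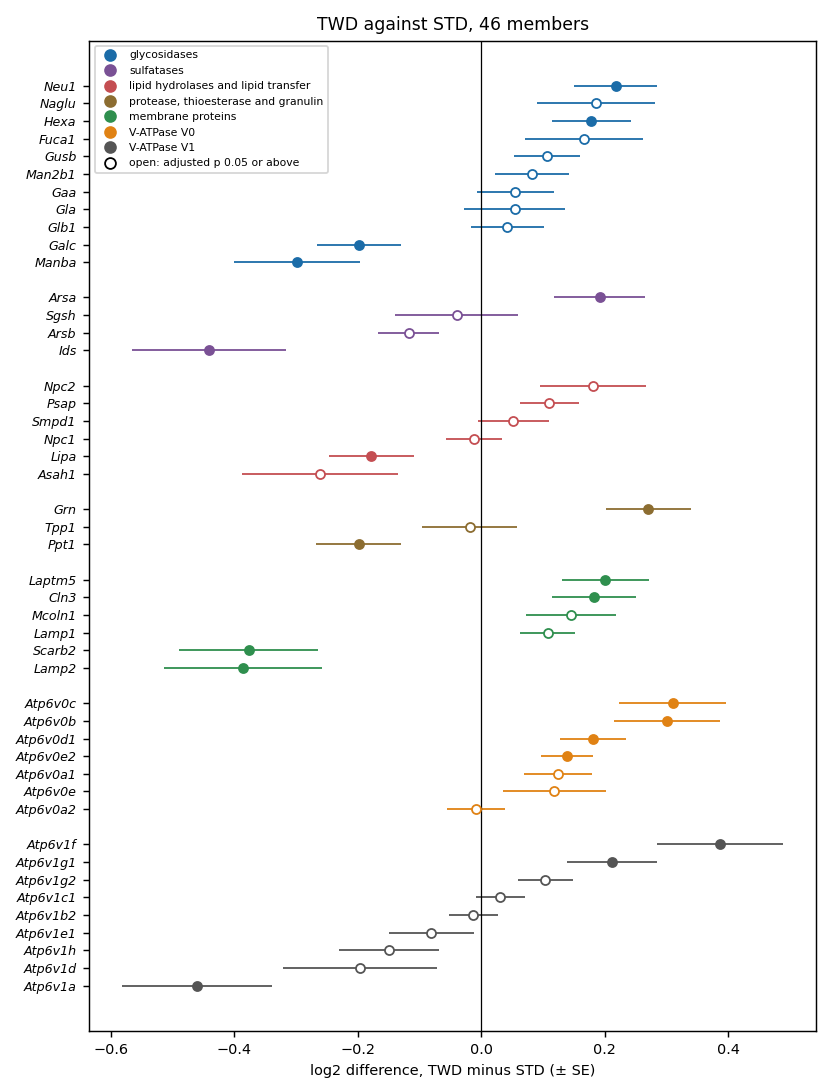
Log2 difference between diets (TWD minus STD, x axis, ± SE) for each of the 46 members in the fit over all genotypes, ordered within 7 roles shown by colour; filled points passed an adjusted p of 0.05 in limma and open points did not. Atp6v1f (0.39) and Atp6v0c (0.31) lie farthest right and Atp6v1a (-0.46), Ids (-0.44), Lamp2 (-0.39) and Scarb2 (-0.38) farthest left.

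The V-ATPase subunits differed in both directions. Of the V0 sector 4 of 7 were higher on TWD, against 16.0% of all genes, and none was lower. These were the ring subunits Atp6v0c (0.31 ± 0.09, adjusted p = 0.0159, limma) and Atp6v0b (0.30 ± 0.09, 0.0165), Atp6v0d1, which joins the ring to the central stalk (0.18 ± 0.05, 0.0175), and Atp6v0e2 (0.14 ± 0.04, 0.0194). Of the V1 sector, Atp6v1f (0.39 ± 0.10, adjusted p = 0.0157) and Atp6v1g1 (0.21 ± 0.07, 0.0296) were higher, while Atp6v1a, which hydrolyses ATP, was lower (-0.46 ± 0.12, 0.0157). Atp6v1a read 11.29 to 12.76 (median 12.26) on TWD and 11.80 to 12.92 (median 12.58) on STD. On TWD 8 of 24 mice were below every STD mouse, so the diet groups overlapped widely. No subunit passed with A+T+/TWD replicate 1 and AwTw/TWD replicate 3 both left out, and none passed in batch 0 alone.

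The longer TCACGTGA was in 2 of the 11 genes with a window that were higher on TWD, Atp6v0d1 and Cln3. It was in 1 of the 8 that were lower, Atp6v1a. Atp6v0e, Gla and Mcoln1, which were not called for diet, hold it as well. The windows of Atp6v0d1 and Atp6v1a are shown from 220 bases before to 30 bases after the start site, with CACGTG in capitals.

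Atp6v0d1 (chr8:105566035-105566284, - strand): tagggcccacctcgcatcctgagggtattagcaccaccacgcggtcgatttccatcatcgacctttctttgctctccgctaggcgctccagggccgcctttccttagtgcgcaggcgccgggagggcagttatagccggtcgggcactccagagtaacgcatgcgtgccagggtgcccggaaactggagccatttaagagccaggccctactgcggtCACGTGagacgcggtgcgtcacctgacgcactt
Atp6v1a (chr16:44139230-44139479, - strand): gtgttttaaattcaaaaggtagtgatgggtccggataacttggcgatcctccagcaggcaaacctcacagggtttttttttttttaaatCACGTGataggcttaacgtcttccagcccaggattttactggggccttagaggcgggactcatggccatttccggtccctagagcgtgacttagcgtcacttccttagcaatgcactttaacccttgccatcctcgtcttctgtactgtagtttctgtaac

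In Atp6v0d1 the capitals begin 3 bases before the start site, and in Atp6v1a 131 bases before it. Over all members, CACGTG was in 4 of the 11 genes with a window that were higher on TWD (36.4%) and in 1 of the 8 that were lower (12.5%). The share was 33.3% over the 39 members with a window and 8.09% over all genes, and the difference by direction was not tested.

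Among the membrane proteins, 2 of 6 were higher and 2 lower on TWD, against 16.0% and 13.4% of all genes. Lamp2, a coat protein of the membrane that also takes part in chaperone-mediated autophagy, read 8.03 to 10.09 (median 9.12) on TWD and 8.71 to 10.10 (median 9.53) on STD, a difference of -0.39 ± 0.13 (adjusted p = 0.0257, limma). Scarb2, the receptor that carries glucocerebrosidase to lysosomes, read 9.39 to 11.01 (median 10.43) against 10.23 to 11.08 (median 10.64), and fell by 0.38 ± 0.11 (adjusted p = 0.0180). On TWD 9 of 24 mice were below every STD mouse in Scarb2. Laptm5 (0.20 ± 0.07, adjusted p = 0.0309) and Cln3 (0.18 ± 0.07, 0.0402) were higher.

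The soluble enzymes also moved in both directions. Ids, which starts the breakdown of heparan and dermatan sulfate, read 11.00 to 12.61 (median 12.16) on TWD and 11.70 to 12.86 (median 12.51) on STD, a difference of -0.44 ± 0.13 (adjusted p = 0.0163). Manba, a beta-mannosidase (-0.30 ± 0.10, adjusted p = 0.0293), Galc, which degrades galactosylceramide of myelin (-0.20 ± 0.07, 0.0289), Ppt1, which removes palmitate from proteins (-0.20 ± 0.07, 0.0311), and Lipa (-0.18 ± 0.07, 0.0474) were lower as well. Higher on TWD were Grn (0.27 ± 0.07, adjusted p = 0.0157), the sialidase Neu1 (0.22 ± 0.07, 0.0198), Arsa, which desulfates sulfatide (0.19 ± 0.07, 0.0449), and Hexa (0.18 ± 0.06, 0.0349). Grn, Hexa and Laptm5 passed in both the diet and the transgene comparison, whose fits use the same mice. When each mouse was left out in turn, the diet call was lost in 27 of 45 fits for Lipa, 22 for Arsa, 19 for Cln3, 13 for Hexa, 8 for Ppt1, 7 for Laptm5, 3 for Galc, 1 for Manba and 0 for Grn.

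The lysosomal genes outside the list were called in both directions by diet: 7 of 61 were higher and 5 lower, which together is 19.7% against 29.4% of all genes. Those that fell included Tmem106b (-0.52 ± 0.18, adjusted p = 0.0298) and Gnptab (-0.39 ± 0.12, 0.0179), and those that rose Ctsz (0.33 ± 0.10, 0.0176) and the phospholipase Pla2g15 (0.25 ± 0.05, 0.0157). Of the microglial markers 7 rose and 2 fell, with a median of 0.154, and the list mean ran from -0.41 to 0.51 on TWD and from -0.53 to 0.57 on STD. All 11 choroid plexus markers had negative differences (median -0.537), of which 0 passed in limma and 2 did at an unadjusted p under 0.05. With the choroid plexus mean as a covariate 26 members passed for diet, against 33.2% of all genes. Without that covariate, of the remaining lists of 10 markers each, 6 neuronal (4 higher, 2 lower) and 5 astrocyte markers (2 higher, 3 lower) passed for diet. So did 4 oligodendrocyte (all higher) and 2 endothelial markers (1 higher, 1 lower), against 29.4% of all genes. The part of microglia, neurons, astrocytes, oligodendrocytes and endothelial cells in the diet differences was not tested.

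The members that rose and fell with diet differed in base composition. GC content, taken as the median over a gene's annotated transcripts, had a median of 55.2% in the 12 members that were higher on TWD and 46.7% in the 8 that were lower, with 51.1% in the 26 that did not pass. Across the 46 members the diet difference correlated with GC content with a Pearson r of 0.700, and across 15695 genes with an r of 0.599; genes are not independent replicates, they share the same libraries and no p is given. For the transgene the corresponding values were 0.340 and 0.322. When a smooth trend over transcript length and GC content was removed from each mouse, 9 of 46 members passed for diet, against 18.4% of all genes: Atp6v1f, Atp6v1g1, Atp6v0b, Atp6v0c, Grn, Neu1 and Lamp1 were higher, and Atp6v1a and Scarb2 were lower. After that step Galc differed by 0.00 in place of -0.20, and Atp6v1a by -0.37 ± 0.10 (adjusted p = 0.0179, limma). The transgene comparison also gave 9 calls after it, against 5.45% of all genes in either direction, with Lamp2 (0.31 ± 0.09, adjusted p = 0.0198) in and Lamp1 out.

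**Figure D4:**
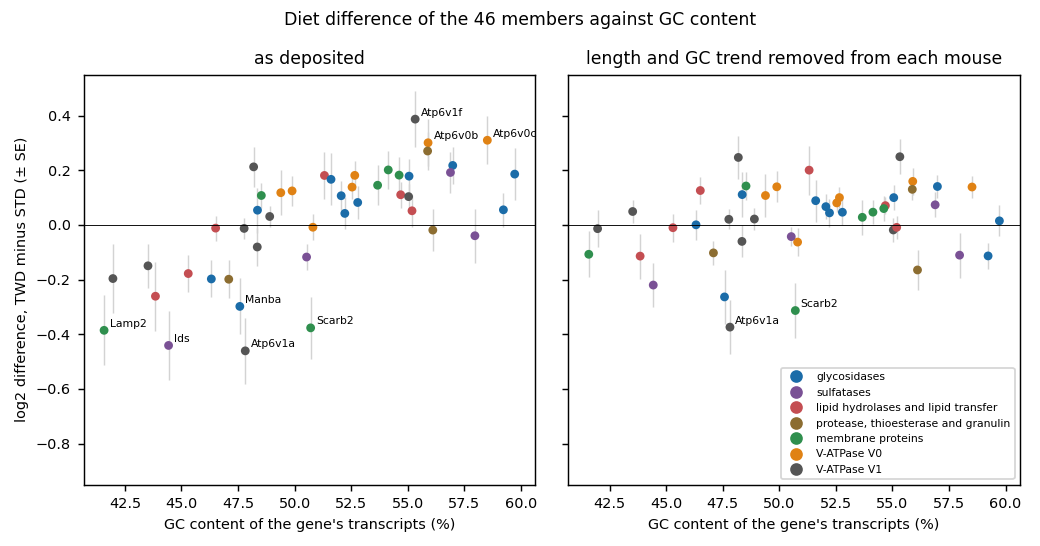
Log2 difference between diets (TWD minus STD, y axis, ± SE) of the 46 members against the GC content of their transcripts (percent, x axis), coloured by role, with the deposited values on the left and after removal of a length and GC trend from each mouse on the right. On the left the points rise from Lamp2 (41.6% GC, -0.39) to Atp6v0c (58.5% GC, 0.31), and on the right Atp6v1a (-0.37) and Scarb2 (-0.31) remain lowest.

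The diet comparison was also made within each batch. In batch 1 alone 28 of 46 members passed, with a median of 0.158, and in batch 0 alone 0 passed in limma (1 at an unadjusted p under 0.05), with a median of 0.020. Over all genes 40.9% passed in batch 1 and 0% in batch 0. Atp6v1a differed by -0.15 in batch 0 and -0.69 in batch 1, Scarb2 by -0.14 and -0.61, and Atp6v1f by 0.19 and 0.58. Atp6v1d, a stalk subunit, differed by 0.17 in batch 0 and -0.55 in batch 1. The difference between the batches was not itself tested. A+T+/TWD replicate 1 and AwTw/TWD replicate 3, without which no member passed for diet, are both in batch 1. Batch 0 also held fewer mice than batch 1.

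**Figure D5:**
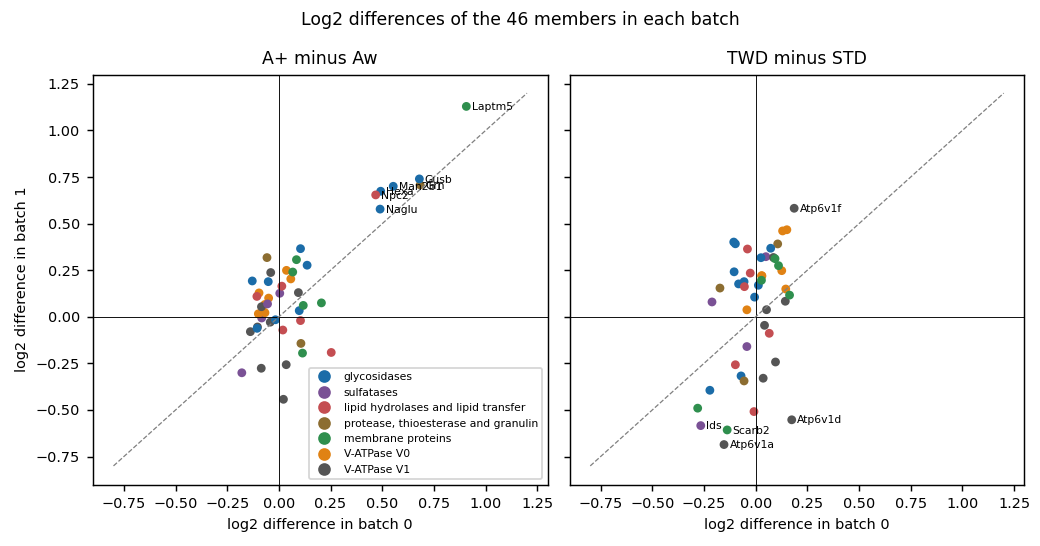
Log2 differences of the 46 members in batch 0 alone (x axis) and in batch 1 alone (y axis), for A+ minus Aw on the left and TWD minus STD on the right, with colours by role and a dashed line where both are equal. On the left Laptm5 (0.91 and 1.13) and Gusb (0.68 and 0.74) lie above 0 on both axes, and on the right most points spread along the vertical axis, such as Atp6v1a (-0.15 and -0.69).

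Within single genotypes, diet was called in AwTw mice alone. There 6 of 46 members passed, against 9.35% of all genes; 4 were higher, against 6.01%, and 2 were lower, against 3.34%. Higher on TWD were Atp6v1f (0.62 ± 0.20), Atp6v0c (0.57 ± 0.17), Arsa (0.42 ± 0.14) and Laptm5 (0.40 ± 0.13), and lower were Manba (-0.69 ± 0.19) and Galc (-0.47 ± 0.12). All 6 had an adjusted p of 0.0498 in limma, and all 6 were lost in 32 of the 45 fits that left out 1 mouse. Their differences over the 45 fits stayed on 1 side of 0, from -0.814 to -0.612 for Manba and from 0.486 to 0.667 for Atp6v0c. Without AwTw/TWD replicate 5, 30 members passed, against 38.2% of all genes, and without replicate 4 of that group 14 did, against 22.4%.

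Manba read 7.23 to 8.20 (median 7.90) in AwTw/STD and 6.77 to 7.34 (median 7.13) in AwTw/TWD mice. Galc read 8.14 to 8.55 (median 8.47) and 7.59 to 8.24 (median 8.02). Both genes overlapped between the diets only at the edge of the ranges. Among mice carrying tau, APPswe/PS1dE9 or both transgenes, 0 members and 0% of all genes passed for diet within each genotype, with 4, 1 and 0 members respectively at an unadjusted p under 0.05 in limma. In the fit with equal weights no interaction of genotype and diet passed, so these counts do not by themselves show that AwTw mice responded differently. With weights per mouse, A+T+ by diet passed for 11 members, against 18.2% of all genes.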

How the data were processed

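RNA-seq of hippocampus from 45 mice was analysed from 1 deposited table of 15897 genes. The authors trimmed single reads (FastQC 0.11.8, Trimmomatic 0.38, with Bowtie2 2.2.3 among the tools named in the submitters' processing notes), quantified them on the mouse transcriptome with kallisto 0.44.0, dropped genes of low mean count, stabilized the variance with DESeq2 1.22.2 and removed the batch effect with limma 3.38.3. The deposited values are therefore log2-like, run from 1.903 to 18.082, and hold no counts or library depth. What distinguishes the batches is not given in the sources used here.

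Gene symbols, transcript lengths and GC content came from GENCODE M21 (GRCm38), which named 15707 of the 15897 genes. Values of 157 genes repeat those of an earlier gene. Differences were tested in R 4.3.3 with limma 3.58.1 (8 groups plus batch, empirical Bayes with a mean trend, two-sided, Benjamini-Hochberg over all genes, threshold 0.05). A+ against Aw averaged the 4 groups of each kind, and TWD against STD came from a fit of genotype, diet and batch. Because batch had already been removed from the values, the residual spread may be slightly understated in the alternative with no batch term. The code was tested on simulated data with known changes. Summaries used Python 3.11.15.

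The members and lists were chosen with earlier results of these data known. Named were members past the threshold, at most 12 a comparison, the 5 of largest difference in 3 comparisons, and fixed members of each role. Atp6v0e, Atp6v1e1 and Sgsh, and the genes named from the marker lists and the other lysosomal genes, were chosen after their values were seen. Alternatives were another normalization, a filter on low values, no batch term, each batch alone, no mean trend, only the groups compared, identical rows counted once, weights per mouse, removal of a length and GC trend (spline of 4 degrees of freedom) and each mouse left out. Leaving out the 2 mice least like the others, and a choroid plexus covariate, were chosen after seeing the data.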

Additional observations from a re-analysis of the deposited data

Results flagged for a closer look

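In 12 cases 1 mouse stood apart from the rest of its group, by the gap to its nearest neighbour relative to the group's range (Dixon's test). These came from 200 groups of mice over 25 genes, of which chance gives about 1 in 20. The cause of none of them was tested.

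On TWD, A+T+ replicate 1 had the lowest Scarb2 (9.39, with the others at 10.32 to 10.74) and the highest Neu1 (10.54, others 9.92 to 10.10). This mouse is one of the pair with the lowest correlation with all other mice. A+Tw/TWD replicate 2 had the highest Arsa (9.59, others 9.05 to 9.24) and the lowest Manba (6.79, others 7.29 to 7.56). AwT+/TWD replicate 3 had the highest Atp6v0b (12.17, others 11.30 to 11.57) and the lowest Ids (11.49, others 12.16 to 12.43), and AwT+/TWD replicate 1 the lowest Glb1 (8.32, others 8.66 to 8.85).

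On STD, AwTw replicate 6 had the highest Laptm5 (10.11, others 9.65 to 9.72) and the highest Arsa (9.36, others 8.67 to 8.83), and AwTw replicate 2 the lowest Ids (11.70, others 12.58 to 12.86). A+T+/STD replicate 4 had the lowest Arsa (8.90, with each of the others at 9.08), and AwT+/STD replicate 3 the highest Lipa (8.59, others 8.19 to 8.31).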

How the results depend on the processing

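The count of members higher in A+ than in Aw mice was 9, lay between 6 and 9 under every alternative run, and was 8 to 9 when 1 mouse was left out. Counts for tau alone, for A+T+ against A+Tw and for diet within AwT+, A+Tw and A+T+ were 0 in every fit that left out 1 mouse. Other counts moved as follows, and the cause was not tested. Those of the 4 contrasts with AwTw on the same diet are given here without the share of all genes. They describe how the calls moved and are not a result about the members. When 1 mouse was left out, members called ranged from 5 to 6 for A+Tw/STD, 4 to 6 for A+Tw/TWD, 6 to 9 for A+T+/STD and 3 to 5 for A+T+/TWD. They ranged from 12 to 23 for TWD against STD, where 17.4% to 37.2% of all genes were called. For diet in AwTw they ranged from 0 to 30, where 0% to 38.2% of all genes were called. The other lysosomal genes called ranged from 19 to 22 for A+, where 3.21% to 4.66% of all genes were called. For diet they ranged from 6 to 17, where 17.4% to 37.2% of all genes were called. In batch 0 alone the counts were 0 for A+Tw/STD (1 mouse, assumed to vary like the other groups), 1 for A+T+/STD, 1 for A+T+/TWD, 0 for diet and 0 for diet in AwTw (median -0.032), with 8 other lysosomal genes for A+ and 0 for diet. In batch 1 alone they were 3 for A+Tw/STD, 0 for A+Tw/TWD, 1 for A+T+/STD and 0 for A+T+/TWD. For diet in AwTw the count there was 16, against 25% of all genes (median 0.280). The diet median was 0.158, and 21 other lysosomal genes were called for diet, against 40.9% of all genes. With only the groups compared in the fit, 3 were called for A+Tw/STD, 3 for A+Tw/TWD, 1 for A+T+/TWD and 0 for diet in AwTw. Weights per mouse gave 15 for A+T+/STD and 11 for A+T+ by diet, the latter against 18.2% of all genes. They gave 32 for diet in AwTw (median 0.222), against 46% of all genes. The choroid plexus covariate gave 5 for A+T+/STD and 12 for diet in AwTw, the latter against 17.4% of all genes. Removal of the length and GC trend gave 9 for diet, against 18.4% of all genes, and 0 for diet in AwTw (median 0.055), against 0%. Without the 2 mice least like the others, 0 members and 0 other lysosomal genes were called for diet, and 0 members in AwTw. Diet in AwTw also gave 11 with no batch term, against 15.7% of all genes. It gave 14 above the 25th percentile of expression, against 23.9% of the genes kept. With quantile normalization and without a mean trend it gave 0, against 0% of all genes. Signs of named members called for A+, diet or diet in AwTw were compared with those under each alternative. Galc changed sign for diet after the length and GC trend was removed (0.0002), as did Atp6v1f for diet in AwTw in batch 0 alone (-0.0033). Members not called for diet also differed in sign between batches, such as Atp6v1d (0.17 in batch 0 and -0.55 in batch 1) and Naglu (-0.11 and 0.40). No paired analysis was possible because the labels give the groups no shared replicate numbers.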
